A study of Mus musculus with 9 samples.

Results

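The 36 genes described here are the chemokines and chemokine receptors on an expression array of sorted fetal mouse lung cells, taken by gene symbol: 15 CC ligands, 6 CXC ligands with the ELR motif, 8 CXC ligands without it, the CX3C ligand Cx3cl1 and 6 receptors. All 36 were found among 24306 measured genes, on 49 of 62976 array features. In the study, pregnant mice received tamoxifen at 0.1 mg per g body weight at E15.5, fetal lungs were taken at E18.5, and RFP-positive cells were stained for Acta2 and PDGFRalpha, sorted, with RNA isolated without culture. The 3 groups compared had 3 arrays each: SMC (Acta2 high and PDGFRalpha low, labelled airway and vascular smooth muscle), MYF (PDGFRalpha high and Acta2 low, labelled alveolar myofibroblast progenitors) and INM (low for both, labelled as undifferentiated intermediate progenitors). The tamoxifen and the RFP label were common to all groups, and the genotype of the mice and the promoter behind the RFP label are not given in the sources used here. RNA was amplified before hybridisation, with 1 one-colour array per sample, so precision is limited by how few arrays there were.

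One array stood apart. Over all features, SMC replicate 1 correlated with the other 8 arrays at 0.425 to 0.451, while the remaining 28 pairs of arrays reached 0.864 to 0.970. Each difference of a member past the test is therefore given for all 9 arrays and for the 8 arrays without SMC replicate 1. Other values are for 8 arrays where so marked. The gene of the PDGFRalpha stain, Pdgfra, had log2 signals of 1.98, 6.93 and 6.89 in SMC, 13.63, 13.04 and 13.87 in MYF, and 8.66, 8.46 and 8.30 in INM. Acta2, the smooth muscle actin of the other stain, gave 14.77, 15.88 and 14.79 in SMC, 14.06, 13.87 and 13.97 in MYF, and 13.43, 13.44 and 13.84 in INM. Pdgfra thus separated MYF from both other groups, and Acta2 was highest in SMC without overlap, by a narrow margin at these bright signals.

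Chemokines are small secreted proteins that bind receptors coupled to heterotrimeric G proteins and direct the migration of leukocytes and other cells. Their families are named for the spacing of conserved cysteines. CC ligands mostly attract monocytes, macrophages, lymphocytes and eosinophils, CXC ligands with a glutamate-leucine-arginine (ELR) motif attract neutrophils through Cxcr2, and several CXC ligands without that motif act on lymphocytes. In developing organs, Cxcl12 of stromal cells acts through Cxcr4 on blood-forming and endothelial cells. Many inflammatory chemokine genes are switched on by NF-kB, the transcription factor of the response to Tnf and Il1b, whereas Cxcl9, Cxcl10 and Cxcl11 respond to interferons.

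Of the 13 members past the test in at least 1 comparison, 10 had their lowest group mean in MYF when SMC replicate 1 was left out. The 13 were picked by these same values, mostly in comparisons that involve MYF. That count therefore only describes them, and no such share was taken over all genes. Without SMC replicate 1, 9 members were higher and 1 lower in SMC than in MYF, 1 was higher and 8 were lower in MYF than in INM, and 1 was higher and 0 were lower in SMC than in INM. The test was limma's moderated test over all genes at an adjusted p under 0.05. Of the members, 6 passed it in both comparisons that involve MYF: Ccl3, Ccl4, Ccl9, Ccr2, Cx3cr1 and Cxcl15. These comparisons share the MYF arrays, and the share of all genes that passed both was not taken. The count of 6 therefore only describes these members. In bulk RNA, fewer cells of a type and less RNA per cell cannot be told apart.

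Read against all genes, the 9 members higher in SMC than in MYF were 25% of the members, and 4.66% of all genes were called in that direction, of 8.2% called in either. In the lower direction the share was 2.78% of the members, against 3.54% of all genes. In MYF against INM, 22.2% of the members were lower, against 6.35% of all genes, and 2.78% were higher, against 4.35% (10.7% in either direction). For SMC against INM the single higher member was Ccl12, where 0.247% of all genes were called, 0.0906% higher and 0.157% lower. The median member difference was 0.98 for SMC minus MYF (all genes -0.05), -0.81 for MYF minus INM (all genes 0.05) and -0.36 for SMC minus INM (all genes -0.03).

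With all 9 arrays 3 members passed, and all 3 were lower in MYF than in INM: Ccl4, Ccl9 and Ccr2. That fit called 1.1% of all genes in MYF against INM, 0.927% lower and 0.173% higher. For SMC against MYF it called 0 members, with 12 at an unadjusted p under 0.05 and a smallest adjusted p of 0.0561, while 0.671% of all genes were called, 0.379% higher and 0.292% lower. For SMC against INM limma called 0 of all genes and 0 members at 9 arrays, with 1935 genes and 12 members at an unadjusted p under 0.05. With all 9 arrays, signals without overlap between groups were found for 7 members above and 3 below in SMC against MYF (9.34% and 12.1% of all genes), and for 3 above and 7 below in SMC against INM (6.91% and 8.54%). Without SMC replicate 1 they were found for 14 members above and 5 below in SMC against MYF (18% and 22.3% of all genes) and for 6 above and 14 below in MYF against INM (18.6% and 16.5%). In SMC against INM, 6 members lay above and 10 below, against 13% and 15.4% of all genes.

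**Figure D1:**
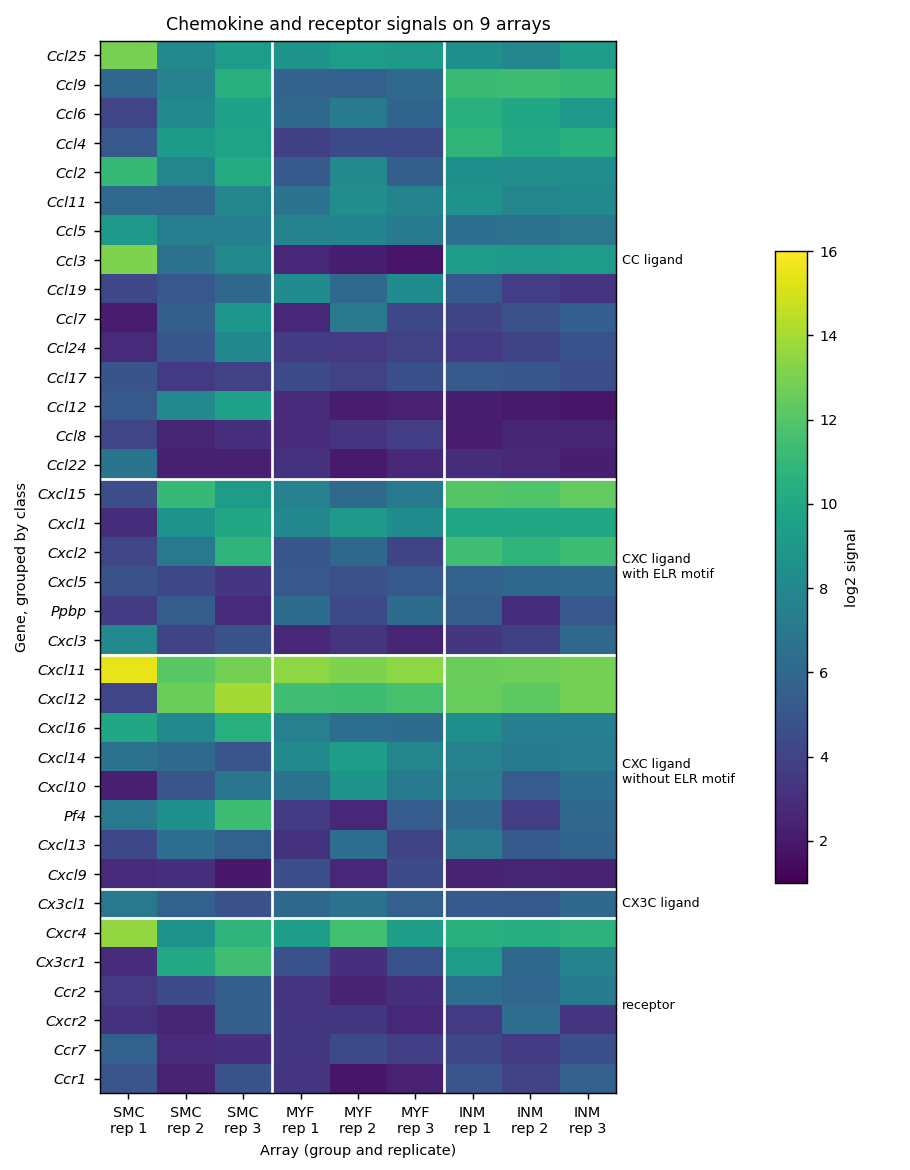
Colour shows the log2 signal of the brightest probe of each of the 36 genes (rows, grouped by class) on the 9 arrays (columns, SMC then MYF then INM, 3 replicates each). The MYF columns are dark for Ccl3, Ccl4, Ccl12 and Cxcl2, and the column of SMC replicate 1 departs from the other SMC columns, as for Cxcl12 at 4.16.

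**Figure D2:**
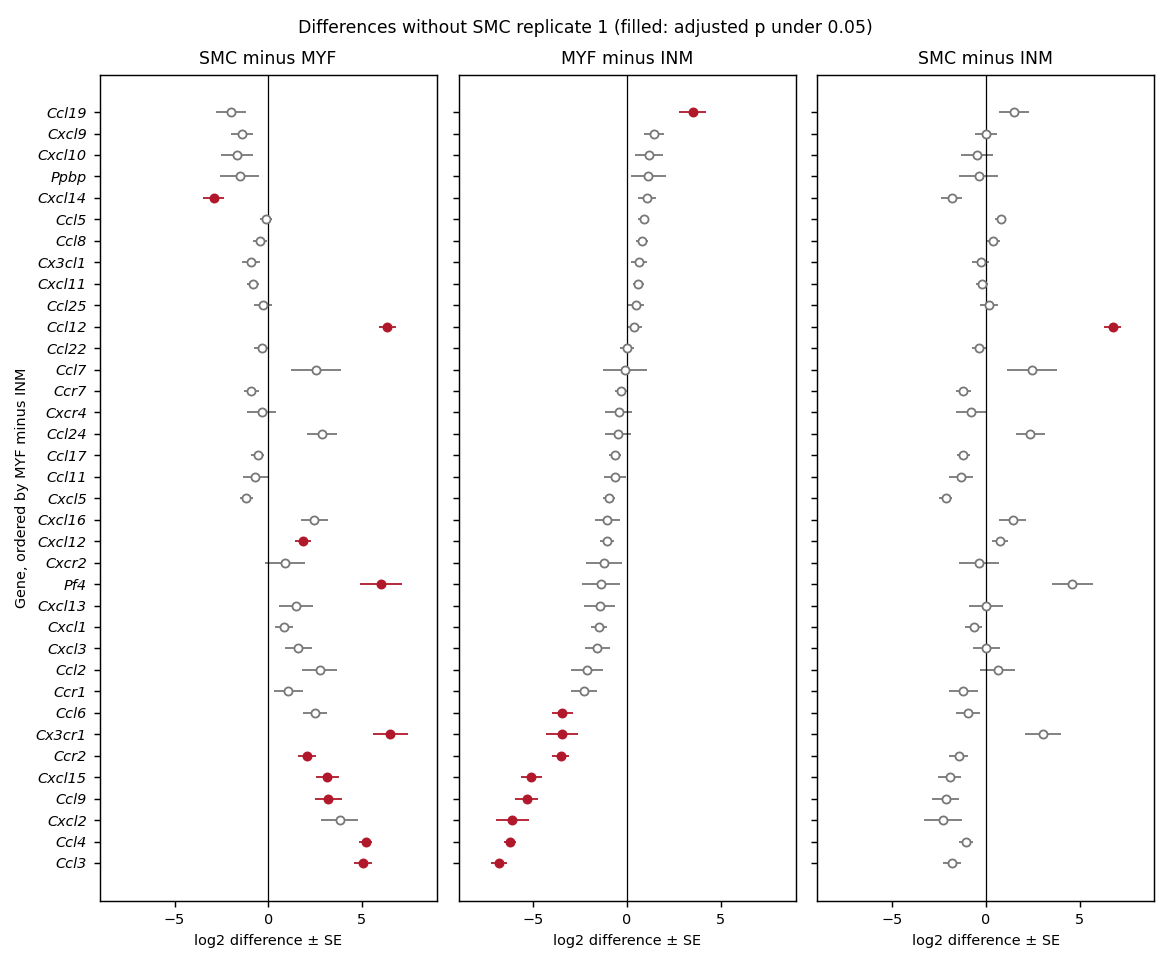
Log2 differences with standard errors for the 36 genes in the 3 comparisons, with SMC replicate 1 left out; filled red points have an adjusted p under 0.05. The panel of SMC minus MYF holds 10 filled points, that of MYF minus INM 9, and that of SMC minus INM 1, Ccl12.

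Markers of other cell types differed between the groups in the same comparisons. Of 13 macrophage and monocyte markers measured, 8 were higher and 0 lower in SMC than in MYF without SMC replicate 1, and 1 was higher and 7 were lower in MYF than in INM. Tyrobp, a signalling adaptor of myeloid cells, had log2 signals of 3.27, 9.73 and 11.90 in SMC, 5.83, 4.85 and 6.01 in MYF, and 11.44, 10.95 and 11.10 in INM. MYF lay below INM on every array, and SMC replicates 2 and 3 lay above MYF. Mrc1, a mannose receptor of macrophages, differed by 5.20 ± 0.71 between SMC and MYF (adjusted p = 0.0062, 8 arrays). Lyz2, myeloid lysozyme, differed by -5.24 ± 0.81 between MYF and INM (adjusted p = 0.00658, 8 arrays). In SMC against INM, C1qc, a complement subunit, was the only marker of this list past the test at 8 arrays. Its difference was 7.45 ± 0.74 (adjusted p = 0.0159). The C1qc signals were 7.10, 9.55 and 11.97 in SMC, 2.23, 2.39 and 2.77 in MYF, and 2.81, 2.78 and 4.33 in INM. Not every marker of the list separated MYF from INM. C1qa was 3.76 to 4.34 in MYF and 3.93 to 4.28 in INM. C1qb was 7.01 to 7.81 in MYF and 7.30 to 7.58 in INM. With all 9 arrays limma called 0 of this list in SMC against INM (smallest adjusted p = 0.193). The list was mixed in that comparison at 8 arrays, with 7 of 13 differences positive and a median of 0.15.

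No array value of a marker can be read as 0 on this log2 scale, whose lowest signal was 1.65. In this list, the Itgam and Csf1r probes were bright on every array (15.22 to 15.99 and 11.84 to 13.12), and Csf1r was the marker that was higher in MYF than in INM. The summed linear signals of the macrophage list, in which bright probes weigh most, overlapped: 75300 in SMC replicate 1 and 61100 to 72000 in the other SMC arrays, 52600 to 62000 in MYF, and 56000 to 73600 in INM. Epithelial markers (9 genes) were all higher in SMC than in MYF and all lower in MYF than in INM without SMC replicate 1. Their summed signals were 59000 to 125000 in SMC replicates 2 and 3, 3660 to 10600 in MYF, and 140000 to 154000 in INM. Of 8 endothelial markers, 7 were higher in SMC than in MYF and 7 were lower in MYF than in INM, with sums of 4360 to 6500 in SMC replicates 2 and 3, 521 to 636 in MYF and 9350 to 10100 in INM. At 9 arrays, 2 macrophage, 3 epithelial and 1 endothelial marker were higher in SMC than in MYF, and 1 macrophage, 3 epithelial and 2 endothelial markers passed as lower in MYF against INM.

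Of 7 heart muscle markers, 6 were higher in SMC than in MYF and 4 were lower in MYF than in INM at 8 arrays, against 1 and 0 at 9 arrays, where 6 and 3 had an unadjusted p under 0.05 (sums of 84200 to 230000 in SMC replicates 2 and 3, 1480 to 2900 in MYF and 12900 to 22000 in INM). Of 10 neutrophil markers only S100a8 passed, at -3.52 ± 0.77 in MYF minus INM (adjusted p = 0.026, 8 arrays), and the list median was 0.06 in that comparison. The list's summed signal, 25300 to 38100 in SMC replicates 2 and 3, 40600 to 51700 in MYF and 25600 to 29200 in INM, was carried by the Csf3r probe, which was at 14.61 to 15.65 on every array. Of 10 lymphoid markers Cd4 alone passed, at 1.03 ± 0.26 in MYF minus INM (adjusted p = 0.0449, 8 arrays). At 9 arrays limma called 0 of the neutrophil and 0 of the lymphoid markers in every comparison, with 0 to 2 per list at an unadjusted p under 0.05. In each comparison limma called 0 of 6 platelet markers, with 0 at an unadjusted p under 0.05, and 0 of 6 mast cell markers, with 0 or 1, at 8 arrays. Of 7 dendritic cell markers, 2 were lower in MYF than in INM at 8 arrays and 1 at 9. In SMC replicate 1 the lymphoid sum was 18500, against 609 to 1240 on the other 8 arrays. The part of these cell types in the chemokine results was not tested.

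**Figure D3:**
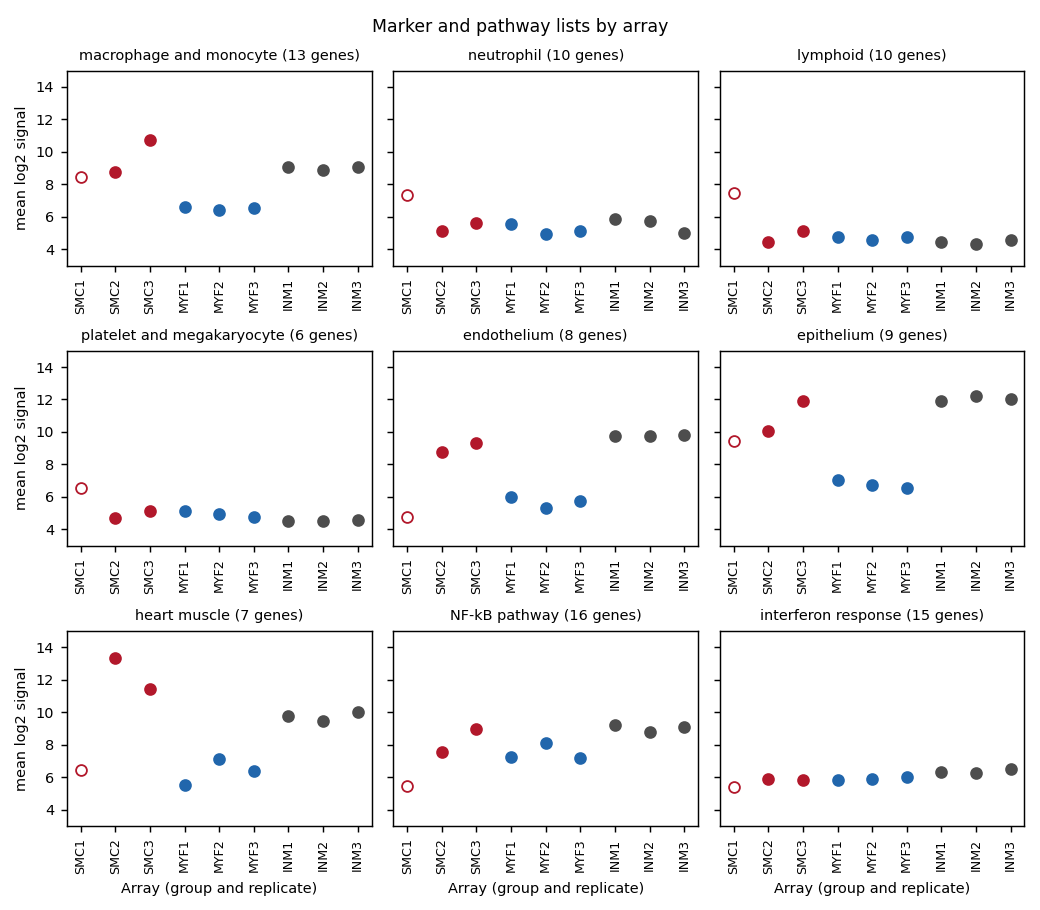
Mean log2 signal of 7 cell type marker lists and of the NF-kB and interferon lists on each array, SMC left, MYF middle and INM right, with SMC replicate 1 as an open circle. Macrophage, epithelial and endothelial means are lowest in MYF among the 8 arrays shown as filled circles, and the macrophage mean is 6.41 to 6.63 in MYF against 8.89 to 9.09 in INM.

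Among the CC ligands, the macrophage inflammatory proteins Ccl3 and Ccl4 separated MYF from the other groups most widely. Ccl3 had log2 signals of 13.10, 6.60 and 8.14 in SMC, 2.75, 2.26 and 1.93 in MYF, and 9.23, 9.02 and 9.25 in INM. Every MYF array was near the floor of the scale, and no MYF array reached any SMC or INM array. The MYF minus INM difference was -6.85 ± 0.43 (adjusted p = 3e-04) and the SMC minus MYF difference 5.05 ± 0.48 (adjusted p = 0.00208) without SMC replicate 1. With SMC replicate 1, the highest of all, neither passed, at -6.85 ± 1.39 for MYF minus INM (adjusted p = 0.0611) and 6.96 ± 1.39 for SMC minus MYF (adjusted p = 0.068).

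Ccl4, which attracts monocytes and lymphocytes, gave 5.08, 9.15 and 9.65 in SMC, 3.81, 4.36 and 4.39 in MYF, and 10.79, 10.06 and 10.50 in INM. MYF was again lowest without overlap, and here SMC replicate 1 lay close to MYF rather than above the other arrays. The difference was 5.21 ± 0.36 for SMC minus MYF (adjusted p = 0.000917) and -6.26 ± 0.32 for MYF minus INM (adjusted p = 0.000299) without that array. With it the values were 3.77 ± 1.07 (adjusted p = 0.169) and -6.26 ± 1.07 (adjusted p = 0.0352). The second Ccl4 probe gave 6.38 and -7.45 for the same comparisons at 8 arrays.

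Ccl9 and Ccl6, CC ligands of rodents that attract myeloid cells, followed. Ccl9 had 6.05, 7.65 and 10.44 in SMC, 5.69, 5.58 and 6.21 in MYF, and 11.22, 11.34 and 11.03 in INM. All INM arrays lay above all MYF arrays, SMC replicate 1 lay within the MYF range, and the other SMC arrays lay between the groups. MYF minus INM was -5.37 ± 0.63 (adjusted p = 0.00201) without SMC replicate 1 and -5.37 ± 0.96 (adjusted p = 0.0405) with it. SMC minus MYF was 3.22 ± 0.71 (adjusted p = 0.0329) without that array and 2.22 ± 0.96 (adjusted p = 0.328) with it. Ccl6 gave 4.13, 8.14 and 9.61 in SMC, 6.09, 7.24 and 5.83 in MYF, and 10.52, 9.96 and 9.06 in INM. Here MYF lay below INM on every array, with a difference of -3.46 ± 0.57 at 8 arrays (adjusted p = 0.00839; 0.331 at 9 arrays), and SMC minus MYF missed the threshold at 2.49 (adjusted p = 0.0526, 8 arrays).

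Ccl9, Ccl6, Ccl3 and Ccl4 are neighbours on chromosome 11, with Ccl5 (RANTES, which attracts lymphocytes) at one end of the same run in the RefSeq gene order. Ccl5 did not pass, with 9.07, 7.44 and 7.48 in SMC, 7.73, 7.77 and 7.20 in MYF, and 6.46, 6.64 and 6.93 in INM, so that MYF lay above INM, the opposite order to its 4 neighbours. The promoters of Ccl9 and Ccl3, both on the minus strand, are shown as examples from these 4 neighbours. They run from 250 bases before to 50 bases after the RefSeq start (build GRCm38.p6), 5′ to 3′, and capitals mark matches to the NF-kB consensus, which was searched on both strands with overlapping matches allowed.
Ccl9 (chr11:83578587-83578886, minus strand): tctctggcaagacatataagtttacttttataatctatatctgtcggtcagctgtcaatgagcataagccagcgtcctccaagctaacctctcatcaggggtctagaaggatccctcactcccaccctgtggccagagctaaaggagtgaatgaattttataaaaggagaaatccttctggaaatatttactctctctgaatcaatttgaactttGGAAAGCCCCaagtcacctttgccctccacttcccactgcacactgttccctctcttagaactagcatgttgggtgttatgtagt
Ccl3 (chr11:83649329-83649628, minus strand): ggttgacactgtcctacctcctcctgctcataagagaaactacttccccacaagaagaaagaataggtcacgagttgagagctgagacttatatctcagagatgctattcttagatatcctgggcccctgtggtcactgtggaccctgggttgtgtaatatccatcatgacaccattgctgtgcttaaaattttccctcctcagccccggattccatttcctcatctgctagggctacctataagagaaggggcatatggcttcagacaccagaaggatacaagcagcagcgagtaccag
The Ccl9 window holds 1 match, which starts 35 bases before the start site, and the Ccl3 window holds none of these letters. The Ccl6 window, not shown, held no match, and Ccl4 had no promoter in the records used. Over the table, 8.5% of 32851 promoters of this length held at least 1 match.

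Ccl12, a mouse ligand of the monocyte receptor Ccr2, was the only member past the test in SMC against INM, at 8 arrays. Its signals were 5.21, 8.06 and 9.60 in SMC, 2.78, 2.21 and 2.38 in MYF, and 2.26, 2.08 and 1.86 in INM. All 3 SMC arrays, replicate 1 included, lay above all 6 others, which were near the floor. SMC minus MYF was 6.37 ± 0.46 (adjusted p = 0.000917) and SMC minus INM 6.77 ± 0.46 (adjusted p = 0.00941) without SMC replicate 1. With that array the values were 5.17 ± 0.96 (adjusted p = 0.0561) and 5.56 ± 0.96 (adjusted p = 0.193).

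Ccl12 lies on chromosome 11 in a run with Ccl2, Ccl7, Ccl11 and Ccl8, and the other 4 passed no comparison. Ccl2, the main monocyte attractant, had 11.06, 7.86 and 10.21 in SMC, 5.19, 8.11 and 5.54 in MYF, and 8.48, 8.40 and 8.35 in INM, where one MYF array overlapped SMC. Ccl7, a further Ccr2 ligand, spread from 2.18 to 8.89 in SMC, from 2.73 to 7.05 in MYF, and from 4.09 to 5.51 in INM. Ccl11, the eosinophil attractant eotaxin, was 5.93 to 7.87 in SMC, 6.72 to 8.33 in MYF and 7.85 to 8.65 in INM.

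Ccl19, a ligand of Ccr7 that draws dendritic cells and lymphocytes into lymphoid tissue, was the only member past the test as higher in MYF than in INM. It had 4.26, 5.05 and 6.02 in SMC, 8.22, 6.12 and 8.28 in MYF, and 5.14, 3.72 and 3.25 in INM. The lowest MYF array was just above the highest SMC array, and all MYF arrays lay above INM. MYF minus INM was 3.50 ± 0.71 at 8 arrays (adjusted p = 0.0199; 0.0921 at 9 arrays), and SMC minus MYF was -2.43 ± 0.81 at 9 arrays (adjusted p = 0.236). Of the remaining CC ligands, Ccl25 had a bright probe that overlapped between all groups (12.92, 8.17 and 9.32 in SMC, 8.78, 9.25 and 9.10 in MYF, and 8.53, 7.93 and 9.24 in INM). Ccl24, an eosinophil attractant, was 2.83 to 8.02 in SMC against 3.51 to 3.88 in MYF and missed the threshold (2.87 at 8 arrays, adjusted p = 0.0635). Ccl8, Ccl17 and Ccl22 reached at most 5.20 on 8 arrays, and Ccl22 was at 6.78 in SMC replicate 1.

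Of the 6 CXC ligands with the ELR motif, Cxcl15 and Cxcl2 fell in MYF against INM. Cxcl15, known in mice as lungkine and made by lung epithelium, had 4.55, 11.06 and 9.24 in SMC, 7.67, 6.18 and 7.11 in MYF, and 12.00, 11.89 and 12.39 in INM. Without SMC replicate 1 the 3 groups did not overlap, with INM highest and MYF lowest. MYF minus INM was -5.11 ± 0.54 (adjusted p = 0.00139) and SMC minus MYF 3.16 ± 0.61 (adjusted p = 0.0207). With SMC replicate 1, the lowest array, SMC minus MYF was 1.29 ± 1.40 (adjusted p = 0.624) and MYF minus INM -5.11 ± 1.40 (adjusted p = 0.158). The 9 epithelial markers had the same order of group means without that array.

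Cxcl2, a neutrophil attractant made by activated macrophages, gave 4.16, 7.04 and 10.73 in SMC, 5.00, 6.08 and 4.09 in MYF, and 11.42, 10.78 and 11.36 in INM. INM lay above every other array, and the SMC arrays were scattered from the MYF range to just below INM. MYF minus INM was -6.12 ± 0.90 at 8 arrays (adjusted p = 0.00504; 0.0914 at 9 arrays), while SMC minus MYF missed the threshold at 3.82 ± 1.00 (adjusted p = 0.0562, 8 arrays). Cxcl1, its near neighbour on chromosome 5, had 2.96, 8.62 and 9.95 in SMC, 8.01, 9.03 and 8.28 in MYF, and 9.95, 9.94 and 9.93 in INM. All INM arrays lay above all MYF arrays, nearly equal to each other. MYF minus INM was -1.51 ± 0.42 at 8 arrays (adjusted p = 0.0579) and -1.51 ± 1.51 at 9, and passed at neither. Cxcl3, the third of this group, was dim, at 8.17, 4.06 and 4.84 in SMC, 2.69, 3.26 and 2.57 in MYF, and 3.40, 3.84 and 6.04 in INM.

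Cxcl1, Cxcl2 and Cxcl3 belong to a run of 7 members on chromosome 5 (Cxcl5, Ppbp, Pf4, Cxcl3, Cxcl15, Cxcl1 and Cxcl2), and their promoters are shown because the 3 windows hold the same 11 letters. These are read from the plus strand of GRCm38.p6, over the same interval around the start, with NF-kB consensus matches in capitals.
Cxcl1 (chr5:90890995-90891294, plus strand): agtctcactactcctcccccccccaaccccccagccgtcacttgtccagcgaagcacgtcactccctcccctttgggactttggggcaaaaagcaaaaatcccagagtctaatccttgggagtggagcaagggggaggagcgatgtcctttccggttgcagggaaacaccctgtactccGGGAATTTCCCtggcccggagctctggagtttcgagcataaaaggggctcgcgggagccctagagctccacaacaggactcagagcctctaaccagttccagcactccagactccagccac
Cxcl2 (chr5:90903649-90903948, plus strand): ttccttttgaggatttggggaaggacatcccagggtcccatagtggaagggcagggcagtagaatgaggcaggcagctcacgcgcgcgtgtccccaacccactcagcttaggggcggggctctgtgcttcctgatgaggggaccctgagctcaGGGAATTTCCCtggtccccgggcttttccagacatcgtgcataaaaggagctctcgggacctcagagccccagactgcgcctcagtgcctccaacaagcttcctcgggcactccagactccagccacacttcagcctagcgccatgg
Cxcl3 (chr5:90785851-90786150, plus strand): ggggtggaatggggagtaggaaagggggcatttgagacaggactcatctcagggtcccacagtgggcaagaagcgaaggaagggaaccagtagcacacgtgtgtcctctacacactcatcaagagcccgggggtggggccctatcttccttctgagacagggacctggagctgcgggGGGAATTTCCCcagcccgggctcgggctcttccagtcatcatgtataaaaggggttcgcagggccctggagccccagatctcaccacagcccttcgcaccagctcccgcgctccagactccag
In each window the 11 capitals hold 2 overlapping matches, 1 base apart, and the stretch reads the same on both strands but for its middle base. The first base stands 71 bases before the start of Cxcl1, 97 before Cxcl2 and 73 before Cxcl3. For each of the 3 genes, all MYF arrays lay below all INM arrays, as for 16.5% of all genes. The MYF minus INM differences at 8 arrays were -1.51 for Cxcl1, -6.12 for Cxcl2 and -1.58 for Cxcl3. They shared this direction but differed in size, and only Cxcl2 passed the test. Of 26 members with a promoter in the table, 6 had a match (Ccl9, Ccr1, Cxcl1, Cxcl10, Cxcl2 and Cxcl3), and the core of the interferon response element, a pair of GAAA runs with 2 free bases between them, was found in 3 (Ccl19, Cxcl10 and Cxcl14), against 3.4% of all promoters.

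The remaining ELR ligands, Cxcl5 and Ppbp, passed no comparison. Cxcl5 was 4.69, 4.23 and 3.38 in SMC, 5.07, 4.74 and 5.14 in MYF, and 5.71, 5.98 and 6.13 in INM, without overlap between the groups and with small steps. Ppbp, a platelet chemokine precursor, overlapped between all groups, at 2.76 to 5.45 in SMC, 4.30 to 6.31 in MYF and 2.97 to 5.41 in INM.

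Among CXC ligands without the ELR motif, Cxcl12 was bright in the 8 arrays and its brightest probe was higher in SMC than in MYF. It had 4.16, 12.65 and 13.99 in SMC, 11.42, 11.37 and 11.61 in MYF, and 12.51, 12.25 and 12.88 in INM. SMC replicate 1 lay far below every other array, and without it MYF was the lowest group. SMC minus MYF was 1.85 ± 0.43 (adjusted p = 0.0387) without that array and -1.20 ± 2.12 (adjusted p = 0.764) with it, so 1 array turned the sign. The second probe of Cxcl12 gave 7.81, 6.59 and 7.69 in SMC, 7.52, 7.90 and 7.59 in MYF, and 7.37, 7.05 and 7.25 in INM, a difference of -0.53 at 8 arrays in the opposite direction.

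Pf4, platelet factor 4, which is stored in platelet granules and also made by some mouse macrophages, had 7.00, 8.52 and 11.34 in SMC, 3.66, 2.72 and 5.35 in MYF, and 6.11, 3.71 and 6.10 in INM. Every SMC array lay above every MYF and INM array. The SMC minus MYF difference was 6.02 ± 1.12 (adjusted p = 0.0184) at 8 arrays and 5.04 ± 1.20 (adjusted p = 0.113) at 9, and SMC minus INM was 4.62 (adjusted p = 0.163, 8 arrays). The summed linear signal of the 6 platelet markers was 1800 in SMC replicate 1 and 419 to 428 in SMC replicates 2 and 3, against 392 to 584 in MYF and 349 to 398 in INM.

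Cxcl14, a chemokine of epithelia and fibroblasts, was the only member past the test as lower in SMC than in MYF. Its signals were 6.61, 6.16 and 4.97 in SMC, 8.20, 9.43 and 7.80 in MYF, and 7.62, 7.20 and 7.38 in INM. The 3 groups did not overlap, with MYF highest and SMC lowest. SMC minus MYF was -2.91 ± 0.55 (adjusted p = 0.0193) at 8 arrays and -2.56 ± 0.61 (adjusted p = 0.114) at 9. Its second probe differed by -0.23 without SMC replicate 1, with signals of 10.51, 5.61 and 6.37 in SMC against 6.47, 6.35 and 5.84 in MYF, so that SMC replicate 1 lay above every MYF array on that probe.

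The interferon-inducible ligands did not pass any comparison. Cxcl11, which the RefSeq records describe as a transcribed pseudogene in the mouse reference, had the brightest probe of all members, at 15.48, 12.19 and 12.84 in SMC, 13.45, 13.10 and 13.46 in MYF, and 12.60, 12.72 and 12.88 in INM. Signals of different probes are not comparable as amounts of RNA, and the groups differed little here (MYF above INM on every array). Cxcl10 ranged over 2.32 to 6.87 in SMC, 6.71 to 8.78 in MYF and 5.32 to 7.38 in INM, and Cxcl9 over 2.02 to 3.03 in SMC, 2.74 to 4.61 in MYF and 2.45 to 2.57 in INM. Of 15 further interferon response genes, limma called 0 in every comparison at 9 and at 8 arrays, with 0 to 4 at an unadjusted p under 0.05. Cxcl13, the B cell attractant, overlapped between all groups (4.28 to 6.45 in SMC, 3.21 to 6.41 in MYF, 5.25 to 7.00 in INM). Cxcl16, a ligand of Cxcr6, was 8.06 to 10.41 in SMC, 6.30 to 7.54 in MYF and 7.44 to 8.50 in INM, with SMC above MYF on every array but no call (2.48 at 8 arrays, adjusted p = 0.0767).

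Of the receptors, Ccr2 and Cx3cr1, which mark monocytes and macrophages, passed in both comparisons that involve MYF at 8 arrays. Ccr2, the receptor of Ccl2, Ccl7 and Ccl12, had 3.48, 4.47 and 5.57 in SMC, 3.31, 2.46 and 3.03 in MYF, and 6.42, 5.91 and 7.11 in INM. All 3 INM arrays lay above all other arrays, and every SMC array lay above MYF. MYF minus INM was -3.55 ± 0.44 (adjusted p = 0.0025) at 8 arrays and -3.55 ± 0.63 (adjusted p = 0.0405) at 9. SMC minus MYF was 2.09 ± 0.49 (adjusted p = 0.0406) at 8 arrays and 1.58 ± 0.63 (adjusted p = 0.308) at 9.

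Cx3cr1, the receptor of the membrane-bound chemokine Cx3cl1, gave 2.91, 10.04 and 11.42 in SMC, 4.79, 3.04 and 4.76 in MYF, and 9.25, 6.06 and 7.68 in INM. Without SMC replicate 1, the lowest array, SMC lay above INM and INM above MYF. SMC minus MYF was 6.53 ± 0.95 (adjusted p = 0.00739) at 8 arrays and 3.93 ± 1.96 (adjusted p = 0.377) at 9, and MYF minus INM was -3.47 ± 0.85 at 8 arrays (adjusted p = 0.0387; 0.751 at 9 arrays). Its second probe was dim and gave 1.62 for SMC minus MYF and 0.35 for MYF minus INM, a sign opposite to that of the brightest probe in MYF minus INM. The ligand Cx3cl1 was not called in any comparison. Its tested probe overlapped between groups, at 4.70 to 7.06 in SMC, 5.57 to 6.68 in MYF and 5.14 to 5.98 in INM. The second Cx3cl1 probe gave 2.51, 5.94 and 6.02 in SMC, 4.84, 5.22 and 5.16 in MYF, and 6.02, 6.24 and 6.36 in INM. Without SMC replicate 1 that probe differed by 0.91 in SMC minus MYF and -1.13 in MYF minus INM. Both signs were opposite to those of the tested probe.

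Cxcr4, the receptor of Cxcl12, had 13.56, 8.63 and 10.78 in SMC, 9.35, 11.47 and 9.33 in MYF, and 10.51, 10.32 and 10.66 in INM. SMC and MYF each spread by more than 2 log2 units, the 3 groups overlapped, and no difference passed. Ccr1, a receptor of Ccl3 and Ccl9, was 2.41 to 4.97 in SMC, 1.93 to 3.31 in MYF and 3.97 to 5.57 in INM, with MYF below INM on every array and a difference of -2.29 that missed the threshold (adjusted p = 0.0799, 8 arrays). Cxcr2, the neutrophil receptor of the ELR ligands, overlapped between all groups (2.57 to 5.52 in SMC, 2.74 to 3.41 in MYF, 3.32 to 6.39 in INM). Ccr7, the receptor of Ccl19, was 2.87 to 5.64 in SMC, 3.43 to 4.29 in MYF and 3.57 to 4.66 in INM.

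**Figure D4:**
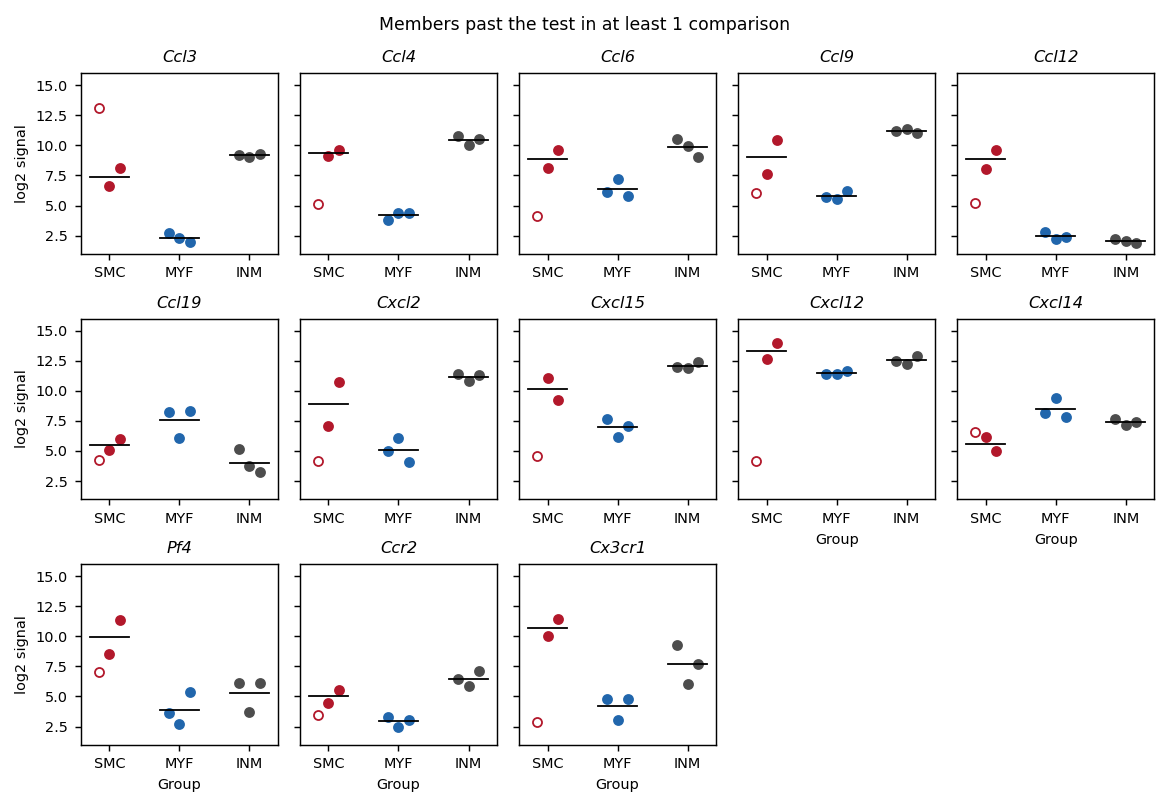
Log2 signals of the 13 members past the test in at least 1 comparison, 1 panel a gene, with SMC left, MYF middle and INM right; each point is 1 array, the open circle is SMC replicate 1, and the bar is the group mean (for SMC over replicates 2 and 3). MYF is the lowest group in 10 panels, the exceptions being Ccl12, Ccl19 and Cxcl14.

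How far the 20 differences called at 8 arrays held depended on the member. Of these, 11 kept their call under every alternative that tested them. They were Ccl3, Ccl4, Ccl12 and Cx3cr1 in SMC against MYF, and Ccl3, Ccl4, Ccl6, Ccl9, Ccr2, Cxcl2 and Cxcl15 in MYF against INM. Leaving out genes below the median level removed Ccl12 and Ccr2, so that alternative did not test them. The other 9 lost their call under at least 1 alternative. Among them were Cxcl12 in SMC against MYF (0.66 with the mean of its probes, adjusted p = 0.332) and Cx3cr1 in MYF against INM (-1.56, adjusted p = 0.239). Ccl12 in SMC against INM lost it with the compared groups alone (adjusted p = 0.141). The 3 calls at 9 arrays were each lost when any single MYF or INM array was left out (adjusted p up to 0.2).

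More than 1 probe was present for 11 members. In SMC minus MYF all probes of a gene agreed in sign for 6 of the 11, and in MYF minus INM for 7 of the 11. Ccl4 and Cxcl16 agreed in both comparisons, with 2.48 and 1.95 in SMC minus MYF and -1.04 and -1.64 in MYF minus INM for the Cxcl16 probes. In SMC minus INM they agreed for 7 of the 11. The called members whose probes disagreed in sign in at least 1 of the 3 comparisons were Cxcl12, Cx3cr1 and Cxcl14, the last in SMC minus INM (-1.83 and 0.23).

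**Figure D5:**
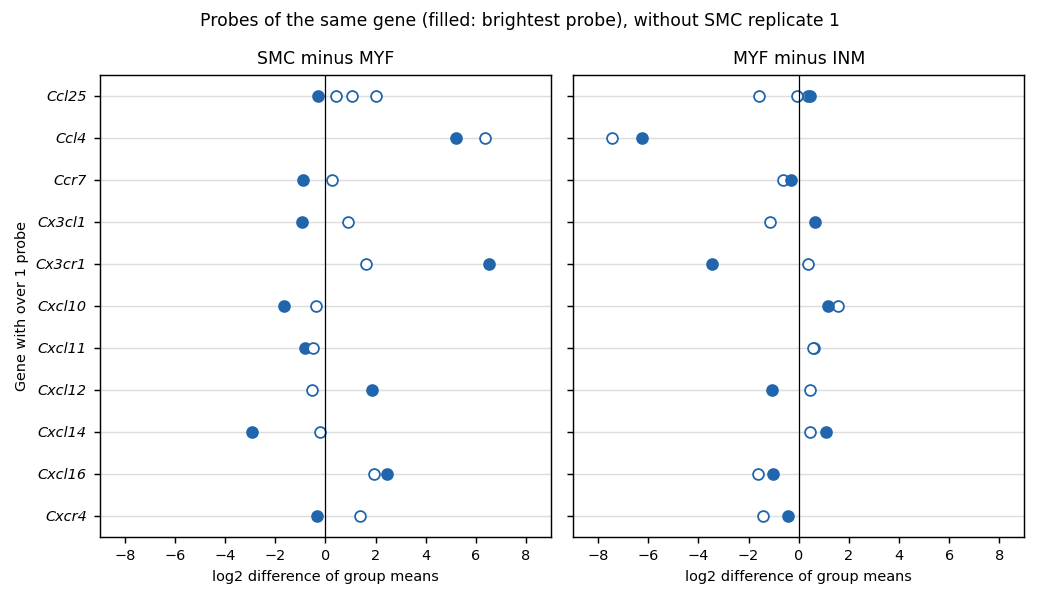
Log2 differences of group means (without SMC replicate 1) for every probe of the 11 genes with more than 1 probe, SMC minus MYF left and MYF minus INM right; filled points are the brightest probe, used in the test. The Ccl4 points lie together far from 0 in both panels, while the Cxcl12 points lie on opposite sides of 0.

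Genes of the chemokine system outside the 36 were taken from fixed lists. Of 8 further chemokine ligands only Ccl27a passed, at 2.30 ± 0.35 in MYF minus INM (adjusted p = 0.00596, 8 arrays). Of 16 further receptors, 3 were lower in MYF than in INM at 8 arrays. They were the scavenger receptors Ackr2 (-3.44 ± 0.55, adjusted p = 0.00746) and Ackr3, which takes up Cxcl12 (-2.88 ± 0.64, adjusted p = 0.0276), and Ccrl2 (-2.95 ± 0.67). Ackr3 had signals of 3.85, 10.20 and 10.33 in SMC, 6.91, 9.60 and 7.38 in MYF, and 10.97, 10.99 and 10.56 in INM. Cxcr6, the Cxcl16 receptor, was lower in SMC than in MYF, at -3.07 ± 0.67 (adjusted p = 0.0312, 8 arrays). At 9 arrays limma called 0 of these ligands and receptors in every comparison, with 0 ligands and 4 receptors at an unadjusted p under 0.05.

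Of 18 signalling genes downstream of chemokine receptors, 3 were higher and 1 lower in SMC than in MYF, and 1 was higher and 5 were lower in MYF than in INM, at 8 arrays. Those lower in MYF than in INM were the leukocyte signalling genes Rac2 (-3.94 ± 0.76), Vav1 (-3.35 ± 0.53), Rgs1 (-3.02 ± 0.66), Pik3cg (-2.46 ± 0.39) and Pik3r5 (-1.60 ± 0.33). Rgs2, a regulator that dampens G protein signalling, was higher in MYF than in INM (3.06 ± 0.70), and Elmo1 was lower in SMC than in MYF (-2.33 ± 0.40). The list median was 0.24 for SMC minus MYF and -0.60 for MYF minus INM. At 9 arrays limma called 0 of the 18 in every comparison (smallest adjusted p = 0.0586), with 1 to 4 at an unadjusted p under 0.05.

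Of 16 NF-kB pathway genes and targets, 2 were higher in SMC than in MYF and 5 were lower in MYF than in INM, at 8 arrays. The NF-kB subunit genes Nfkb1, Nfkb2, Rel, Rela and Relb passed no comparison. Their MYF minus INM differences were 0.83, -0.46, -0.39, 0.17 and 0.37 in that order, at 8 arrays. Tnf, an inflammatory cytokine, had 2.47, 6.95 and 9.59 in SMC, 5.03, 5.44 and 5.19 in MYF, and 9.41, 9.53 and 10.08 in INM. Il1b, another, had 11.14, 7.59 and 11.12 in SMC, 5.28, 5.91 and 4.03 in MYF, and 10.62, 10.35 and 10.39 in INM. Both were lower in MYF than in INM on every array, with a difference of -4.46 ± 0.61 (adjusted p = 0.00372) for Tnf and -5.38 ± 0.85 (adjusted p = 0.00711) for Il1b at 8 arrays. At 9 arrays Il1b alone passed in MYF minus INM (adjusted p = 0.0405).

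Of 10 proteoglycans and proteases that hold or cut chemokines, 1 was higher and 2 were lower in SMC than in MYF at 8 arrays. In MYF against INM, 2 were higher and 2 lower. Among them, Dpp4 is a protease that trims the amino end of Cxcl12 and other chemokines. Dpp4 had 5.42, 6.93 and 7.12 in SMC, 2.22, 1.87 and 4.00 in MYF, and 9.09, 8.68 and 8.69 in INM. The 3 groups did not overlap, SMC replicate 1 included. MYF minus INM was -6.12 ± 0.53 (adjusted p = 0.000693) at 8 arrays and -6.12 ± 0.70 (adjusted p = 0.0107) at 9, and SMC minus MYF was 4.33 ± 0.59 (adjusted p = 0.00606, 8 arrays). Mmp2, a matrix protease that can cleave chemokines, ran the other way, at 3.96 ± 0.35 in MYF minus INM and -4.37 ± 0.39 in SMC minus MYF at 8 arrays, and did not pass at 9 (adjusted p = 0.197 and 0.0637). In SMC against INM, limma called 0 genes of each of these pathway lists at 8 arrays and at 9, with 0 to 4 per list at an unadjusted p under 0.05.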

How the data were processed

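RNA of 9 sorted cell samples (SMC, MYF and INM, 3 arrays each) was amplified and hybridised to one-colour Cy3 arrays. The authors deposited log2 signals per feature; the submitters' processing notes name limma without a version, a role or settings. All 9 deposited columns start at 1.65 and have equal means (5.89) and SDs (3.00), as after quantile normalization by the authors. Of 62976 features, 733 had an empty cell, which was left empty; no flags for signal above background were used. The platform annotation gave 43941 features 1 symbol and 19035 none, and 1887 symbols were updated through RefSeq gene records. Every feature of the members already carried its current symbol.

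For each of 24306 genes the brightest probe (highest mean, 9 arrays) was kept. Group means were compared by linear models with moderated variances (lmFit, eBayes; limma version 3.58.1, R version 4.3.3), without covariates, two-sided, with Benjamini-Hochberg adjustment over all genes and a threshold of 0.05. The fit was run on 9 arrays and on 8 arrays without SMC replicate 1, and all ± values beside differences are standard errors. The procedure was tested on simulated data, with 100 genes changed by 2 log2 units and 100 by 4. There each gene had the same spread on every array, whereas in the data SMC replicate 1 alone stood apart. Recovery in the data at 9 arrays may therefore differ from that simulated. At 9 arrays the procedure called 0 to 2 and 18 to 42 of the changed genes per comparison. At 8 arrays it called 18 to 44 and 70 to 92, and false calls were 1 to 6 in all fits. A count of 0 called at 9 arrays therefore does not show that the groups were alike. Alternatives were a replicate block, the mean of all probes, the probe with the largest interquartile range, genes below the median level left out, a variance trend, array weights, the compared groups alone, 2 scalings, and each array left out in turn.

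The members and the gene lists were chosen with earlier results of these data known. Per-array values are given for members past the test in any comparison and for the 6 with the highest mean signal at 8 arrays; other members are given by range, with values where a sentence turns on one. Of the pathway lists, up to 2 genes past the test in each direction per comparison were to be named. This was not followed throughout: the signalling genes higher in SMC than in MYF were counted but not named. Further names given with them were chosen after their values were seen. Some genes of the marker and pathway lists were not analysed here, and counts are over the genes tested. Promoters come from RefSeq records on GRCm38.p6, which held 26 of the 36 members. Replicate numbers were not used as pairs: nothing in the labels ties equal numbers to one animal or litter, and deviations of same-numbered arrays correlated at -0.0767 to 0.0994.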

Additional observations from a re-analysis of the deposited data

How the results depend on the processing

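Of 105 alternative counts of members called, 74 stayed within 1.5 times the count reported. With all 9 arrays, SMC against MYF (0 members) gave 1 with the mean of all probes, 2 with the probe of largest interquartile range, 18 with array weights (15 higher, 3 lower), 1 with centred arrays, 1 after a further quantile normalization, 0 with a replicate block, and 0 to 10 when each array was left out, with 4 without SMC replicate 2 and 10 without SMC replicate 1. MYF against INM (3 members) gave 0 with a replicate block, 14 with array weights, 13 with the compared groups alone, and 0 to 9 when each array was left out, with 0 without any single MYF or INM array and 9 without SMC replicate 1. SMC against INM (0 members) gave 6 with array weights (3 higher, 3 lower), 0 with a replicate block, and 0 to 1 when each array was left out. With 8 arrays, SMC against MYF (10 members) gave 7 with a replicate block, 5 with array weights, 4 with the compared groups alone, 15 with a variance trend, and 5 to 16 when each array was left out (16 without SMC replicate 2, 6 without SMC replicate 3, 5 without MYF replicate 1, 6 without MYF replicate 3); leaving out an SMC array leaves 1, whose spread is taken from the other groups. MYF against INM (9 members) gave 10 with a replicate block, 15 with array weights and 7 to 13 when each array was left out, and SMC against INM (1 member) gave 0 with a replicate block, 0 with genes below the median level left out (a filter that removed Ccl12), 0 with the compared groups alone, and 1 to 5 when each array was left out. The sign of Cxcl12 in SMC minus MYF at 9 arrays (-1.20) was reversed with array weights (2.11, adjusted p = 0.0304), and over the arrays left out in turn the difference ran from -3.06 to 1.85, the positive end being without SMC replicate 1 (adjusted p = 0.0387).

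Calls lost at 8 arrays in SMC against MYF were Ccl9 (adjusted p = 0.0728 with a replicate block, 0.109 with the compared groups alone), Ccr2, Cxcl12, Cxcl14 (0.0693 with array weights), Cxcl15 (0.0686 with a replicate block) and Pf4 (0.0724 with array weights). In MYF against INM they were Cx3cr1 and Ccl19 (0.0832 without MYF replicate 1), and in SMC against INM Ccl12 (0.0892 with a replicate block). The cause was not tested. Centring moved the median gene of an array by up to 0.48 (SMC replicate 1) with 9 arrays and 0.22 (MYF replicate 2) with 8, and quantile normalization by up to 0.39 and 0.17. Signals near the floor of the scale, such as Ccl3 in MYF, limit how large a difference can be measured.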
